A study of Homo sapiens with 14 samples.

Results

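The catenins are the proteins that join cadherin adhesion receptors to the cytoskeleton, and the members described here are 8 genes of the 58051 in the deposited table: CTNNB1, JUP, CTNNA1, CTNNA2, CTNND1, CTNND2, CTNNBIP1 and CTNNBL1. They were chosen by name, as genes called catenins together with plakoglobin and genes named for beta-catenin, and each was read in all 14 libraries. The question asked of them was whether other catenins, plakoglobin (JUP) first, shifted when CTNNB1 was removed or overexpressed. All 8 had enough reads to be tested.

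At adherens junctions, beta-catenin or plakoglobin binds the tail of a classical cadherin and alpha-catenin, which in turn binds actin, while p120 catenin binds the cadherin close to the membrane and keeps it at the surface. Free beta-catenin is also the transcriptional arm of canonical WNT signalling: a destruction complex marks it for degradation unless a WNT ligand is bound, and the surviving protein enters the nucleus and acts with TCF/LEF factors. In the developing forebrain the same protein therefore serves both the junctions of the neuroepithelium and the WNT signals that pattern it, and the ventral forebrain forms where WNT activity is low.

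Gene expression was measured by RNA sequencing in MGE-like progenitors made from H9, a human embryonic stem cell line, as a model of the medial ganglionic eminence, the ventral forebrain region where many cortical interneurons are born. Every culture received SB431542 (2 µM) and LDN193189 (200 nM), blockers of TGF-beta and BMP signalling, from day 0 to day 6, then SHH (250 ng/mL) and the SHH pathway activator purmorphamine (0.3 µM) from day 10 to day 17, and was collected at day 25. The groups were wild type (WT, n = 3), CTNNB1 knockout (KO, n = 5), inducible CTNNB1 overexpression left without doxycycline (OE without Dox or uninduced OE, n = 3) and inducible overexpression with 0.1 µg/mL doxycycline between day 17 and day 25 (OE with Dox, n = 3). The labels give neither the form of CTNNB1 in the overexpression line, nor how the knockout was made, nor whether it was 1 clone. They also do not say whether replicates were separate differentiations, so p-values measure the spread between these libraries, which may be technical. Doxycycline was given to no wild-type culture, so drug and transgene cannot be told apart.

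Each library held between 5233270 and 5639725 reads assigned to genes. Values below are normalized read counts, the deposited unit, in which 1 read was worth between 0.866 and 0.947. A fold is given on the scale of log2(normalized count + 1), and a gene is said to have risen or fallen when its adjusted p was below 0.05 (limma over 17102 tested genes, two-sided, Benjamini-Hochberg). The labelled tissue was checked against 10 markers of MGE progenitors, none of which was at 0 in any group. Their summed normalized count ran from 2894 to 3224 in WT, from 9857 to 11886 in KO, from 7075 to 10850 in OE without Dox and from 2071 to 2907 in OE with Dox. In these bulk samples, fewer cells of a type and less RNA per cell cannot be told apart.

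CTNNB1 encodes beta-catenin itself and lies on chromosome 3 (ENSG00000168036, hg38 chr3:41194741-41260096, plus strand). Its normalized counts were 4393, 3803 and 3248 in the WT libraries, and 2483, 2779, 2385, 2178 and 2090 in the KO libraries. The OE libraries without Dox gave 3084, 3318 and 3633, and those with Dox gave 26028, 23861 and 31290. All KO libraries therefore sat below all WT libraries, the uninduced OE libraries overlapped WT, and the induced libraries stood far above every other library.

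CTNNB1 RNA fell by 0.67 in log2 (SE 0.13, adjusted p = 0.0010) in KO against WT, to 0.626-fold with a 95% interval from 0.522 to 0.752. Its transcript was thus reduced but abundant in the knockout, with a mean of 2383 ± 271 (SD, n = 5) against 3814 ± 573 (SD, n = 3) in WT. A count over the whole gene does not show which exons the remaining reads came from, and says nothing of the protein. With Dox the gene rose by 3.01 in log2 (SE 0.14, adjusted p = 5.8e-11), to 8.05-fold (95% interval 6.57 to 9.88) over the same line without Dox. Reads of the native gene and of the transgene were counted together.

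Across the family, 3 of the 8 genes fell in KO against WT (CTNNB1, CTNNA1 and CTNND2) and 0 rose, where 7.15% of all tested genes fell and 6.64% rose. With Dox against without, 4 of the 8 rose (CTNNB1, CTNNA1, CTNNBIP1 and CTNNBL1) and 1 fell (CTNNA2), where 12.8% of all tested genes rose and 12.9% fell. The median log2 fold of the 8 was -0.25 in KO against -0.02 over all tested genes, and 0.38 with Dox against 0.02 over all. CTNNB1, the gene that was itself knocked out and overexpressed, is included in these counts and medians. Of the other members, CTNNA1 and CTNND2 fell in KO. With Dox CTNNA1, CTNNBIP1 and CTNNBL1 rose and CTNNA2 fell. The shares over all tested genes are the background for the list counts given below in the same comparisons. JUP and CTNND1 passed the test in neither comparison.

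**Figure D1:**
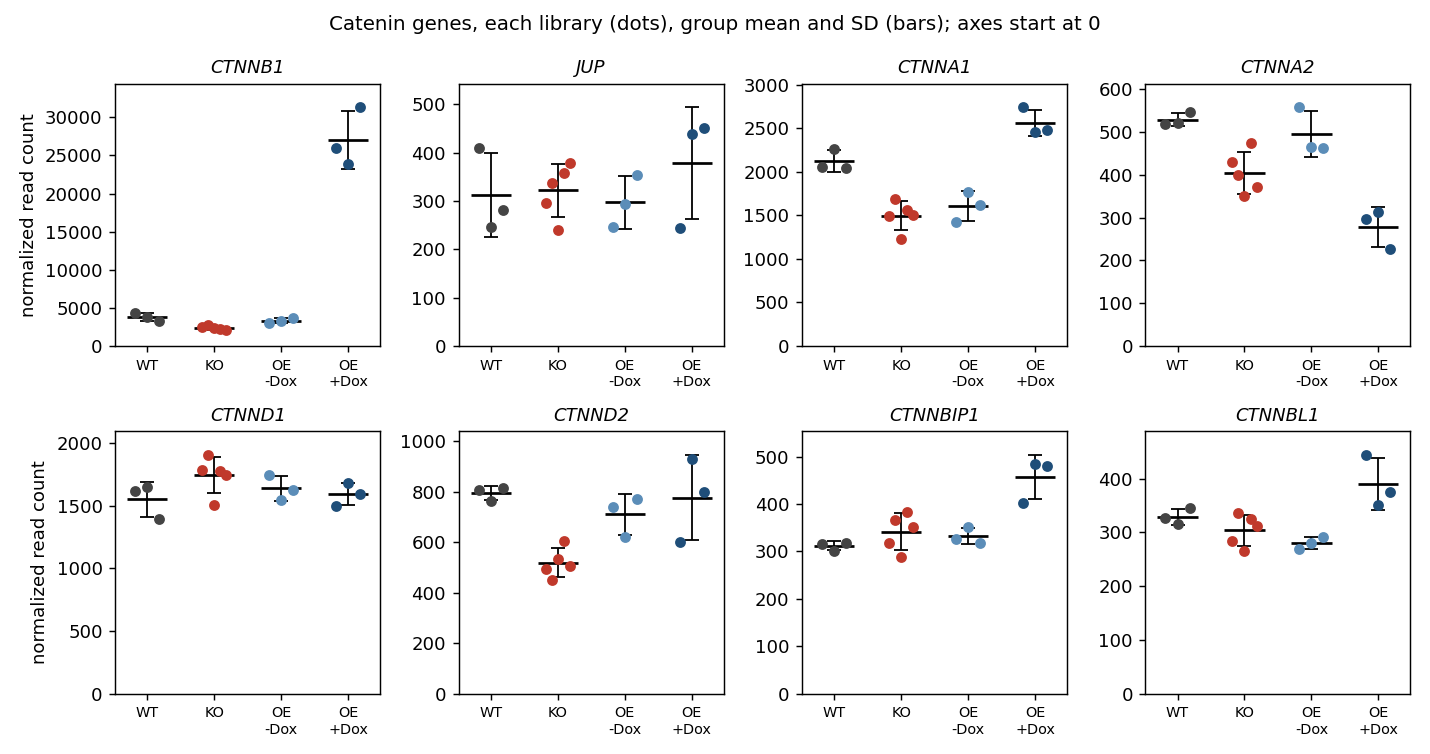
Normalized read count (vertical axes, from 0) of the 8 catenin genes in the 4 groups (horizontal axes); each dot is a library, the horizontal bar the group mean and the whiskers 1 SD. CTNNB1 in the 3 libraries with Dox lies between 23861 and 31290, CTNNA1 and CTNND2 in KO lie below all WT libraries, and JUP overlaps in all groups.

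**Figure D2:**
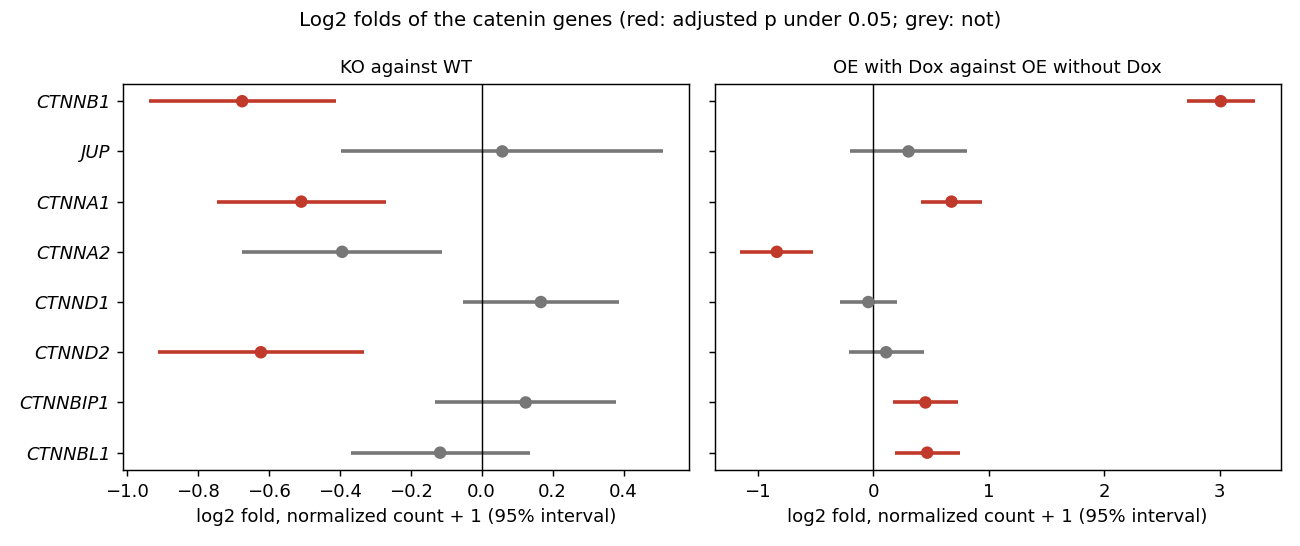
Log2 fold of normalized count + 1 (horizontal axes) with its 95% interval for each gene (rows), in KO against WT and in OE with Dox against OE without Dox; red marks an adjusted p below 0.05 and grey the others. CTNNA1 is lower in KO (-0.51) and higher with Dox (0.68), whereas the JUP intervals include 0 in both comparisons.

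Levels of different genes were compared per kb of the canonical transcript. In WT the order of mean levels ran from CTNNB1 (1042 ± 156 per kb, SD, n = 3) through CTNNA1 (565 ± 33.4), CTNND1 (233 ± 20.8), CTNNBL1 (174 ± 7.82), CTNND2 (134.9 ± 4.46), CTNNA2 (134.5 ± 4.11) and CTNNBIP1 (104 ± 3.16) to JUP (89.1 ± 24.6). CTNND2 and CTNNA2 overlapped between libraries, as did CTNNBIP1 and JUP, while the other neighbours in this order did not overlap. The order depends on the length assumed, since the isoforms used by these cells were not measured.

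CTNNB1 made up 41.9% ± 3.24 of the summed per-kb level of the 8 genes in WT (SD, n = 3), 34.9% ± 3.22 in KO (n = 5), 41.9% ± 1.51 in uninduced and 82.1% ± 2.14 in induced OE (n = 3 each). The other 7 genes together summed to between 1400 and 1452 per kb in WT and between 1039 and 1310 in KO. The same sum lay between 1229 and 1284 in OE without Dox and between 1570 and 1617 with Dox. The summed level of the other 7 was thus lower in every KO library than in WT, and higher in every Dox library than without Dox, as a description with no test. The uninduced OE libraries were also all below WT, within the range of KO. CTNNA1 was the largest part of this sum, with 39.4% ± 2.04 in WT and 32.7% ± 1.14 in KO. Its part was 33.8% ± 3.07 in OE without Dox and 43.0% ± 3.12 with Dox, so the sum mostly follows that gene.

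JUP encodes plakoglobin (gamma-catenin), the closest relative of beta-catenin, which can take its place on classical cadherins and also links desmosomal cadherins to desmoplakin (ENSG00000173801, chr17:41754604-41786931, minus strand). Its counts were 410, 247 and 281 in WT and 297, 337, 239, 358 and 379 in KO. The uninduced OE libraries gave 245, 293 and 354, and with Dox 245, 438 and 451. Every group overlapped every other, and the lowest library with Dox lay level with the lowest without.

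JUP did not pass the test in KO against WT, with a log2 difference of 0.06 (SE 0.22, 95% interval -0.40 to 0.51, adjusted p = 0.91), which leaves room for a level between 0.760-fold and 1.43-fold of WT. With Dox the difference was 0.31 (SE 0.24, interval -0.20 to 0.81, adjusted p = 0.39), or between 0.870-fold and 1.76-fold. Leaving out 1 library at a time moved the Dox difference between 0.15 (without OE with Dox 3, adjusted p = 0.75) and 0.59 (without OE with Dox 1, adjusted p = 0.069). The KO difference then lay between -0.094 (without WT 2) and 0.27 (without WT 1). The interval of a single gene with this spread is wide: the coefficient of variation of JUP within groups ran from 17.2% to 30.5%, where counting error alone gives 4.95% to 5.54%. The Dox effect on JUP minus the KO effect was 0.25 (interval -0.43 to 0.93, adjusted p = 0.62).

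Relative to CTNNB1, the JUP level per kb was 0.0852 ± 0.0155 in WT (SD, n = 3), 0.143 ± 0.0354 in KO (n = 5), 0.0924 ± 0.00944 in uninduced OE and 0.0147 ± 0.00468 after Dox (n = 3 each). The KO libraries, from 0.105 to 0.189, all lay above the WT libraries, from 0.0678 to 0.0975. The exact permutation test gave p = 0.036 for KO against WT, the smallest that 3 against 5 libraries allow, and p = 0.14 after adjustment over the 8 ratio tests made. With Dox the exact p was 0.10, the smallest that 3 against 3 allow (adjusted p = 0.16). In both of these comparisons JUP itself overlapped between the groups and CTNNB1 did not.

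**Figure D3:**
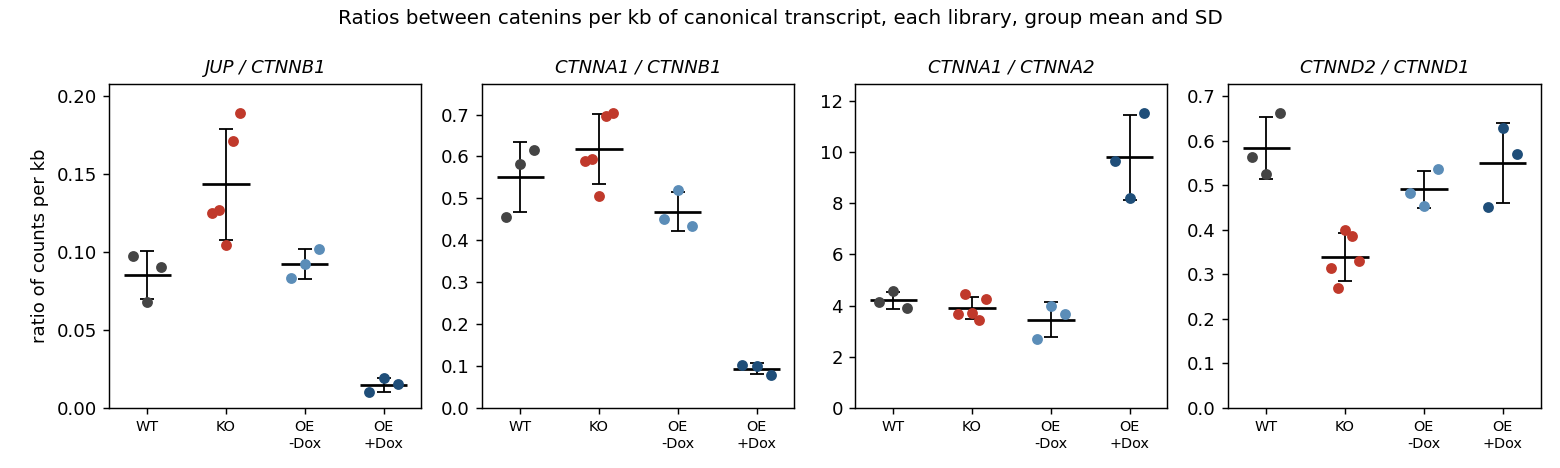
Ratio of normalized counts per kb of canonical transcript (vertical axes, from 0) for 4 gene pairs in the 4 groups (horizontal axes); dots are libraries, bars means and whiskers 1 SD. CTNNA1 to CTNNA2 lies between 8.22 and 11.5 with Dox and between 2.68 and 4.56 in all other libraries, and CTNND2 to CTNND1 lies lowest in KO (0.268 to 0.400).

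Among genes that act with plakoglobin in desmosomes, DSP and DSG2 rose with Dox. Of 9 listed partners (desmoplakin, the desmogleins, the desmocollins and PERP), 5 had enough reads to be tested, and in KO against WT 0 rose and 0 fell by limma. With Dox 2 of the 5 rose and 0 fell (median log2 fold 0.85 against 0.02 over all genes). DSC3, also among the 5, averaged above the 10 counts required for testing only in OE with Dox (27.8) and did not pass in this comparison. DSP, desmoplakin, which ties desmosomes to intermediate filaments, was 99.7 ± 50.9 in WT (n = 3), 90.3 ± 26.0 in KO (n = 5), 117 ± 26.7 in OE without Dox and 2796 ± 510 with Dox (SD, n = 3 each; log2 fold with Dox 4.58, SE 0.33, adjusted p = 3.1e-08). The desmosomal cadherin DSG2 rose from 233 ± 36.0 to 418 ± 28.0 (log2 fold 0.85, SE 0.23, adjusted p = 0.0090). DSG1, DSG3, DSG4 and DSC1 had mean counts of 6.47 or less in every group and were not tested.

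Among 8 armadillo and alpha-catenin relatives outside the family list, 6 were tested. In KO against WT 1 rose and 0 fell: CTNNA3, an alpha-catenin best known from heart muscle, went from 23.9 ± 11.6 to 67.4 ± 8.58 (log2 fold 1.58, SE 0.27, adjusted p = 0.00045). With Dox the plakophilins PKP4 (425 ± 36.9 to 1870 ± 90.8, log2 fold 2.14, SE 0.13) and PKP2 (41.3 ± 15.5 to 191 ± 26.4, log2 fold 2.23, SE 0.29) rose, with adjusted p of 1.3e-09 and 1.1e-05. ARVCF, a p120 relative named after its values were seen, fell from 875 ± 79.7 to 522 ± 81.8 with Dox (log2 fold -0.75, adjusted p = 0.0029). PKP1 and PKP3 were not tested.

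**Figure D4:**
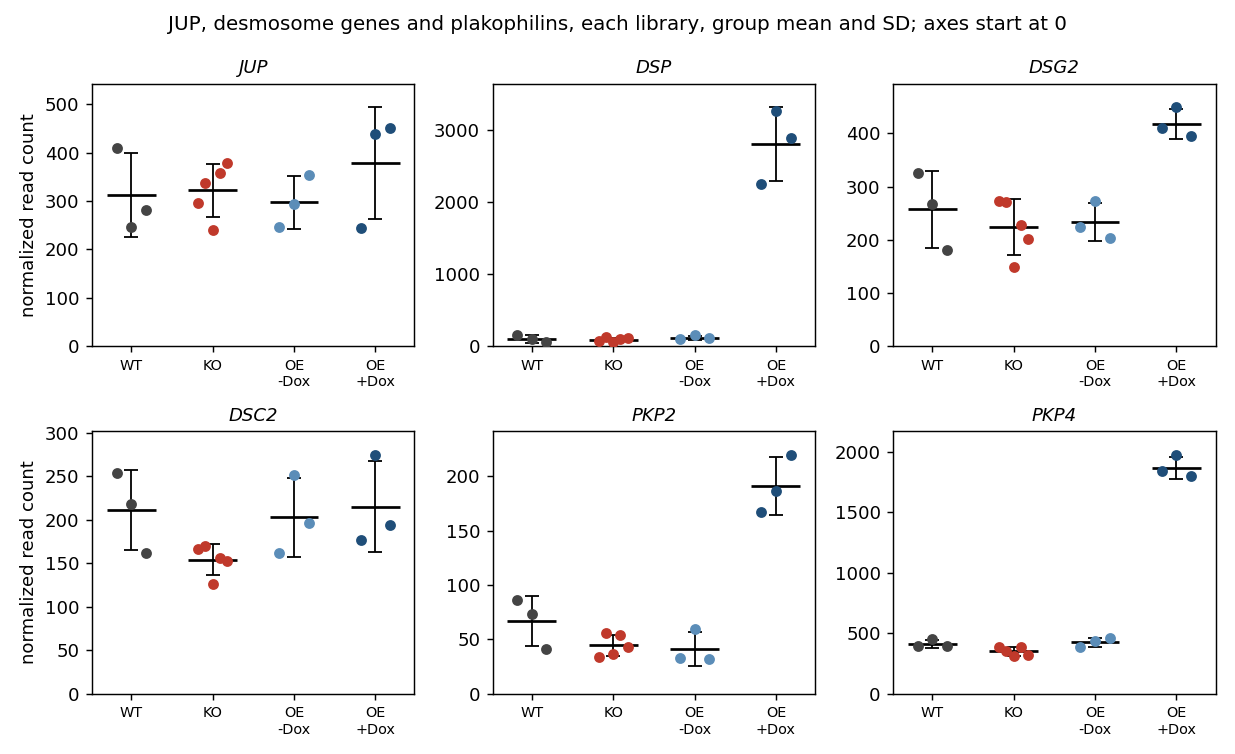
Normalized read count (vertical axes, from 0) of JUP, the desmosome genes DSP, DSG2 and DSC2 and the plakophilins PKP2 and PKP4 in the 4 groups (horizontal axes); dots are libraries, bars means and whiskers 1 SD. DSP, PKP2 and PKP4 in the 3 Dox libraries lie above every other library, while JUP and DSC2 with Dox overlap those without.

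Levels of epithelial markers moved in the same comparison. Of 10 listed, 6 were tested, and 4 rose and 0 fell with Dox, while 3 fell and 0 rose in KO. Their summed count was 179 to 306 in WT, 97.3 to 144 in KO, 129 to 246 in OE without Dox and 366 to 876 with Dox, and none of the 10 was at 0 in any group. The keratin KRT19 averaged 30.1 ± 11.8 in WT and 9.59 ± 1.23 in KO, and 31.5 ± 13.5 without Dox and 185 ± 69.7 with it. KRT18 averaged 27.9 ± 10.3 in WT and 10.2 ± 4.28 in KO, and EPCAM, an epithelial surface protein, 30.3 ± 17.7 without Dox and 117 ± 43.5 with it. CDH1, the epithelial cadherin, named after its values were seen, did not pass (16.6 ± 12.9 without Dox and 32.4 ± 14.5 with it, log2 fold 1.06, adjusted p = 0.13). The part of these markers in the desmosome and plakophilin values was not tested.

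CTNNA1 encodes alpha-E-catenin, the broadly expressed link from the cadherin complex to actin (ENSG00000044115, chr5:138610967-138935034, plus strand). Its counts were 2050, 2267 and 2048 in WT and 1497, 1692, 1234, 1557 and 1508 in KO. In OE without Dox they were 1425, 1771 and 1617, and with Dox 2739, 2459 and 2485. CTNNA1 was thus lower in every KO library than in any WT library, and higher in every Dox library than in any other.

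CTNNA1 fell by 0.51 in log2 in KO (SE 0.11, adjusted p = 0.0045), to 0.703-fold (95% interval 0.596 to 0.829). With Dox against without it rose by 0.68 (SE 0.13, adjusted p = 0.00051), to 1.60-fold (1.33 to 1.92). The Dox effect exceeded the KO effect by 1.19 in log2 (SE 0.17, adjusted p = 3.1e-05), from 2 comparisons that share no library. Uninduced OE libraries all lay below WT, with a log2 difference of -0.41 that did not pass (SE 0.13, adjusted p = 0.068 by limma), so that against WT the Dox libraries stood only 0.27 higher (SE 0.13, adjusted p = 0.15). Against OE without Dox, CTNNA1 in KO differed by -0.10 in log2 (SE 0.11, adjusted p = 0.94), and the libraries of these groups overlapped. A CTNNA1 level below WT was thus not particular to the knockout.

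A processed pseudogene of this gene, CTNNA1P1, is counted separately and ran in parallel, with means of 134 ± 12.3 in WT, 92.2 ± 11.4 in KO, 92.9 ± 21.4 in uninduced OE and 158 ± 5.26 with Dox. Its reads came to between 5.10% and 6.69% of those of CTNNA1 in a library. Reads of such a near-identical copy may be assigned to either gene, so the values of both are uncertain. The CTNNA1P1 values could be reads of CTNNA1 in part or in full. Reads left uncounted because they match both genes are not seen here. LRRTM2, a neuronal adhesion gene on the opposite strand whose exons share 5.04% of the CTNNA1 exon bases, averaged 76.8 ± 38.8 without Dox and 198 ± 61.5 with Dox. The strand setting of the counting is not given in the sources used here, so reads in the shared bases cannot be told apart.

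CTNNA2 encodes alpha-N-catenin, the form of alpha-catenin found mainly in neural tissue (ENSG00000066032, chr2:79185231-80648861, plus strand). Its counts were 519, 520 and 547 in WT and 430, 399, 350, 473 and 371 in KO. Values in OE without Dox were 557, 465 and 461, and with Dox 297, 313 and 226. Every Dox library lay below every library of the other groups, and the KO libraries lay below WT without overlap.

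CTNNA2 fell by 0.83 in log2 with Dox (SE 0.15, adjusted p = 0.00036), to 0.561-fold (95% interval 0.451 to 0.698). In KO against WT it was 0.39 lower in log2 (SE 0.13, interval -0.68 to -0.11) and did not pass the test (adjusted p = 0.061), though it passed in 4 of 25 alternative settings: DESeq2, the fit with the replicate number as a block, and the fits without KO 4 and without OE with Dox 3. The Dox effect minus the KO effect was -0.44 (interval -0.86 to -0.02, adjusted p = 0.11), so a difference between them was not shown.

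The 2 alpha-catenins thus moved in opposite directions with Dox. The per-kb ratio of CTNNA1 to CTNNA2 was 4.21 ± 0.328 in WT (n = 3), 3.90 ± 0.425 in KO (n = 5), 3.45 ± 0.682 in OE without Dox and 9.80 ± 1.66 with Dox (SD, n = 3 each). With Dox against without, the exact permutation p was 0.10, the smallest possible with 3 against 3 libraries (adjusted p = 0.16), and for KO against WT the exact p was 0.29 (adjusted p = 0.38).

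Neuronal markers moved in the same Dox comparison as CTNNA2. Of 11 neuron markers, all tested, 10 fell and 1 rose with Dox, and 9 rose and 0 fell in KO. Their summed count was 9936 to 11548 in WT, 18339 to 22796 in KO, 18240 to 20383 in OE without Dox and 6185 to 6706 with Dox, with none at 0. DCX, a microtubule protein of young neurons, averaged 2513 ± 451 in WT, 6174 ± 542 in KO, 5429 ± 811 in uninduced OE and 866 ± 117 after Dox. RTN1 rose in KO (314 ± 22.9 to 1026 ± 240) and STMN2 fell with Dox (3309 ± 480 to 777 ± 105). RTN1 also rose in OE without Dox against WT (797 ± 69.9, adjusted p = 0.00013). Of the 10 MGE progenitor markers 9 fell and 0 rose with Dox, and 5 rose and 1 fell in KO. The forebrain regulator LHX8 rose in KO (24.9 ± 11.3 to 785 ± 212), and OLIG2 fell with Dox (208 ± 20.9 to 33.3 ± 8.02). LHX8 was also high in OE without Dox (740 ± 319), and KO differed from that line by 0.16 in log2 (adjusted p = 0.98). In OE without Dox against WT, 5 neuron markers and 3 MGE progenitor markers rose and 0 of either list fell, where 3.43% of all tested genes rose and 2.32% fell. In KO against OE without Dox 0 of either list rose or fell by limma. Over all tested genes only 0.351% rose and 1.75% fell there, so 0 calls in lists of this size do not show that the lines are alike. CTNNA2 went the way of the neuron list with Dox but was lower, not higher, in the KO libraries, where the list had risen. The part of the neuronal RNA in the CTNNA2 values was not tested.

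Mesenchymal markers rose beside CTNNA1 with Dox: 6 of 8 rose and 0 fell, and in KO 3 fell and 0 rose. Their summed count ran from 557 to 1872 in WT, 247 to 463 in KO, 372 to 1775 in OE without Dox and 1663 to 6768 with Dox, with none at 0. PDGFRA, a growth factor receptor, averaged 42.5 ± 25.9 in WT and 7.94 ± 1.95 in KO, and 30.3 ± 12.6 without and 89.2 ± 30.05 with Dox. PRRX1, a mesenchymal transcription factor, averaged 14.6 ± 9.29 in WT and 1.48 ± 1.05 in KO, the latter below the level of 3 reads. Without and with Dox it averaged 8.27 ± 4.86 and 269 ± 40.8. Of 5 endothelial and blood markers, 2 were tested, and the sum of the 5 did not exceed 145 in any library. KDR rose with Dox (14.4 ± 10.9 to 87.0 ± 31.6) and fell in KO (20.8 ± 6.92 to 1.84 ± 0.0481, the latter below the level of 3 reads). The part of such cells in the CTNNA1 values was not tested.

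CTNND1 encodes p120 catenin, which stabilises cadherins at the membrane (ENSG00000198561, chr11:57753243-57819546, plus strand). Its counts were 1615, 1646 and 1392 in WT and 1785, 1901, 1508, 1775 and 1740 in KO. The OE line without Dox gave 1741, 1545 and 1625, and with Dox 1500, 1678 and 1593. All groups overlapped.

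Group means of CTNND1 spanned only 1551 to 1742. Its log2 difference was 0.17 in KO against WT (95% interval -0.05 to 0.39, adjusted p = 0.36) and -0.04 with Dox (interval -0.29 to 0.20, adjusted p = 0.84). These intervals allow levels from 0.964-fold to 1.31-fold in KO and from 0.819-fold to 1.15-fold with Dox. ENSG00000254732, the counted gene that shares exon bases with it on the same strand (12.7% of the CTNND1 exon bases), held 10 reads over the 14 libraries against 25141 for CTNND1.

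CTNND2 encodes delta-catenin, a p120 relative found mainly in neurons and neural progenitors (ENSG00000169862, chr5:10971836-11904446, minus strand). Its counts were 805, 764 and 813 in WT and 495, 450, 532, 605 and 506 in KO. Counts in uninduced OE were 741, 618 and 769, and with Dox 598, 930 and 800. Every KO library lay below every library of the WT and OE without Dox groups, while the Dox libraries overlapped both of those groups and KO.

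CTNND2 fell by 0.62 in log2 in KO (SE 0.14, adjusted p = 0.0044), to 0.650-fold (95% interval 0.531 to 0.795). With Dox it differed by 0.11 (SE 0.15, interval -0.21 to 0.44, adjusted p = 0.65), and the Dox effect exceeded the KO effect by 0.74 (SE 0.21, adjusted p = 0.012). Against OE without Dox, the KO level was 0.45 lower in log2 (SE 0.14, adjusted p = 0.14). The fall in KO went against the neuron markers, of which 9 of 11 rose there. Among 8 neural progenitor markers 3 fell and 1 rose in KO, with a summed count of 19866 to 23386 in WT and 14921 to 18886 in KO and none at 0. The glial glutamate transporter SLC1A3 (603 ± 161 to 83.1 ± 32.7) and FABP7 (1129 ± 239 to 536 ± 115) were among those that fell. Both also fell in OE without Dox against WT (adjusted p = 0.010 and 0.0017), FABP7 to 408 ± 106. In KO against OE without Dox SLC1A3 fell (adjusted p = 0.015) and FABP7 did not pass (adjusted p = 0.73). With Dox 2 of the 8 rose and 4 fell, SLC1A3 going from 214 ± 76.1 to 5256 ± 1356 and NES, nestin, from 8156 ± 1156 to 1536 ± 512. Their part in the CTNND2 values was not tested.

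Per kb, the ratio of CTNND2 to CTNND1 was 0.584 ± 0.0701 in WT (n = 3), 0.340 ± 0.0538 in KO (n = 5), 0.490 ± 0.0421 in OE without Dox and 0.550 ± 0.0895 with Dox (SD, n = 3 each). The exact permutation p was 0.036 for KO against WT, again the smallest possible (adjusted p = 0.14), and 0.50 for Dox (adjusted p = 0.50). By contrast the ratio of CTNNA1 to CTNNB1, both of which fell in KO, was 0.550 ± 0.0842 in WT and 0.617 ± 0.0836 in KO (exact permutation p = 0.36, adjusted p = 0.41).

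The promoters of CTNNB1, CTNNA1 and CTNND2 are shown because these are the genes that fell together in KO. RefSeq start sites (GRCh38.p14) gave 15 windows of 250 bases upstream of a start for 7 of the 8 genes, and CTNND1 was not matched. The stretches printed are the part of the first window of each gene that lies outside annotated exons of its own strand: chr3:41199255-41199388 (plus strand) and chr5:138753175-138753417 (plus strand), both inside introns of longer transcripts, and chr5:11904447-11904696 (minus strand), just upstream of the gene. Capitals mark the GC box GGGCGG, searched on both strands.
CTNNB1: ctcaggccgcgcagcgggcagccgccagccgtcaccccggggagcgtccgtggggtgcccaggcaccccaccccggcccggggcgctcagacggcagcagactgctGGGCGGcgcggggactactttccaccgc
CTNNA1: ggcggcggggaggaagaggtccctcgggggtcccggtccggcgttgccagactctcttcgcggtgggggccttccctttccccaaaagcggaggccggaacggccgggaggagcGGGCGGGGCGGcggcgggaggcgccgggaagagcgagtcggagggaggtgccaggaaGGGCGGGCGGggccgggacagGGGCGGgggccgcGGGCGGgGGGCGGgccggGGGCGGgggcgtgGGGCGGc
CTNND2: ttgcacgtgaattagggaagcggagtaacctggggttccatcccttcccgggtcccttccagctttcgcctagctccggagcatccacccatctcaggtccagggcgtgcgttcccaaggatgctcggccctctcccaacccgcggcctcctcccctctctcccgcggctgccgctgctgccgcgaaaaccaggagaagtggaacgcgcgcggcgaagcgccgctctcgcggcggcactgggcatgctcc
The CTNNA1 stretch holds 9 matches, some of them overlapping, the CTNNB1 stretch 1 and the CTNND2 stretch 0. Over the full 250 bases of the same windows the counts are 9, 3 and 0, where 42.6% of all 35116 windows hold at least 1. The TCF/LEF core CTTTGAT or CTTTGAA, also searched on both strands, occurs in none of the printed stretches, in 3 of the 15 windows (1 of CTNNA2 and 2 overlapping ones of CTNNA1 further downstream), and in 5.94% of all windows. A match is a string of letters, not a bound site.

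CTNNBIP1 encodes ICAT, a small inhibitor that binds beta-catenin and blocks its contact with TCF factors (ENSG00000178585, chr1:9848276-9910336, minus strand). Its counts were 316, 301 and 319 in WT and 317, 367, 289, 384 and 353 in KO. In OE without Dox they were 326, 352 and 318, and with Dox 403, 485 and 481. Every Dox library exceeded every library of all other groups.

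CTNNBIP1 rose by 0.45 in log2 with Dox (SE 0.14, adjusted p = 0.019), to 1.37-fold (95% interval 1.12 to 1.67), and by 0.54 against WT (SE 0.14, adjusted p = 0.0071). In KO the difference was 0.12 (interval -0.13 to 0.38, adjusted p = 0.60). The call against OE without Dox was lost when OE without Dox 1 or 3, or OE with Dox 2 or 3, was left out (log2 fold 0.41 to 0.44, adjusted p 0.059 to 0.075) or when genes of low counts were tested too (adjusted p = 0.070), and the Dox effect did not differ from the KO effect past the threshold (0.33, SE 0.18, adjusted p = 0.20).

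CTNNBL1, beta-catenin-like 1, resembles catenins in its repeats but works in the nucleus with the PRP19 splicing complex (ENSG00000132792, chr20:37693955-37872129, plus strand). Its counts were 327, 315 and 345 in WT and 285, 335, 265, 324 and 311 in KO. Uninduced OE libraries gave 270, 279 and 292, and with Dox 443, 351 and 375. The Dox libraries lay above all others, and the uninduced OE libraries lay below WT.

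CTNNBL1 rose by 0.47 in log2 with Dox (SE 0.13, adjusted p = 0.015), to 1.38-fold (95% interval 1.14 to 1.68), and differed by -0.12 in KO (interval -0.37 to 0.14, adjusted p = 0.62). The Dox effect exceeded the KO effect by 0.58 (SE 0.18, adjusted p = 0.020). When OE without Dox 1 or OE with Dox 1 was left out, both calls were lost (log2 fold with Dox 0.44 and 0.37, adjusted p 0.056 and 0.076), as they were when genes of low counts were tested too (adjusted p = 0.062 with Dox). Against WT the Dox level was 0.24 higher (SE 0.13, adjusted p = 0.25). Of 5 PRP19 complex genes 0 rose and 0 fell by limma in either comparison, and PRPF19, the scaffold of that complex, averaged 731 ± 94.6 in WT, 661 ± 47.9 in KO, 677 ± 81.2 without Dox and 806 ± 108 with Dox. The pseudogene CTNNBL1P1 held reads equal to 2.70% to 8.47% of those of CTNNBL1.

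The remaining contrasts set the uninduced line and WT beside these results. In OE without Dox against WT, 0 of the 8 genes passed by limma, where 3.43% of all tested genes rose and 2.32% fell. At an unadjusted p below 0.05 there was 1, CTNNA1, edgeR called 0 and DESeq2 called 1. In KO against OE without Dox 1 gene fell, CTNNB1 (log2 fold -0.49, SE 0.13, adjusted p = 0.047), and 0 rose, where 1.75% of all tested genes fell and 0.351% rose. That call held in 11 of 25 alternatives, and was lost among others when WT 2, any KO library but KO 2, any OE library without Dox, or OE with Dox 1 or 2 was left out (adjusted p up to 0.27).

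In OE with Dox against WT, 2 of the 8 rose, CTNNB1 and CTNNBIP1, and 1 fell, CTNNA2 (log2 fold -0.93, SE 0.15, adjusted p = 0.00014), where 10.4% of all tested genes rose and 10.1% fell. The Dox effect exceeded the KO effect in 4 of the 8 (CTNNB1, CTNNA1, CTNND2 and CTNNBL1) and was below it in 0, where 15.1% and 13.6% of all tested genes did so. For CTNNB1, the gene manipulated in both comparisons, the excess was 3.68 in log2 (SE 0.19, adjusted p = 1.4e-10).

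Classical cadherins, the receptors that catenins bind, did not move as a block. Of 18 listed 15 were tested, of which 2 rose and 6 fell in KO (median log2 fold -0.65 against -0.02 over all genes), and 3 rose and 4 fell with Dox (median 0.00 against 0.02). CDH8 averaged 192 ± 44.1 in WT and 33.8 ± 12.5 in KO (log2 fold -2.52, adjusted p = 1.0e-06), and CDH18 averaged 37.0 ± 8.78 and 1.31 ± 1.08, the latter below the level of 3 reads. CDH8 also fell in OE without Dox against WT (57.7 ± 7.30, log2 fold -1.70, adjusted p = 0.00097). In KO against OE without Dox it did not pass (log2 fold -0.82, adjusted p = 0.12). With Dox CDH4 fell from 358 ± 83.0 to 69.4 ± 19.4 (log2 fold -2.36, adjusted p = 4.2e-07) and CDH6 rose from 428 ± 111 to 1225 ± 359 (log2 fold 1.51, adjusted p = 9.8e-05). CDH2, the N-cadherin of neural tissue, named after its values were seen, averaged 3429 ± 538 in WT and 2404 ± 215 in KO (log2 fold -0.51, adjusted p = 0.013), and 2871 ± 338 and 1987 ± 319 without and with Dox (log2 fold -0.54, adjusted p = 0.010).

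Of 10 genes that link junctions to actin, all tested, 3 rose and 1 fell in KO, and 2 rose and 3 fell with Dox. Over all tested genes 6.64% rose and 7.15% fell in KO, and 12.8% rose and 12.9% fell with Dox. The median log2 fold of the list was -0.01 in KO and 0.30 with Dox, against -0.02 and 0.02 over all genes. In OE without Dox against WT 3 of the list also rose (AFDN, NECTIN3 and PLEKHA7) and 1 fell (ACTN1), where 3.43% of all tested genes rose and 2.32% fell. PLEKHA7, which binds p120 catenin at junctions, rose in KO (231 ± 37.1 to 472 ± 68.6, log2 fold 1.03, adjusted p = 0.00015), as did NECTIN3, a nectin adhesion receptor (313 ± 89.4 to 640 ± 111, log2 fold 1.05, adjusted p = 0.00038). With Dox NECTIN3 fell from 555 ± 38.6 to 190 ± 29.6 (log2 fold -1.55, adjusted p = 9.1e-06), and afadin, AFDN, the actin binder of nectins, fell from 3911 ± 529 to 1619 ± 99.1 (log2 fold -1.26, adjusted p = 2.8e-07). The other genes of the list that passed, named after their values were seen, were AFDN in KO (log2 fold 0.53), PLEKHA7 with Dox (-1.30), and 3 that moved the way CTNNA1 did: ACTN1, an actin crosslinker, in KO (log2 fold -1.01, adjusted p = 0.0032), and LIMA1 and NECTIN1 with Dox (1.75 and 0.52, adjusted p = 0.0021 and 0.038). The linkers thus moved in both directions relative to CTNNA1.

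On the WNT side of beta-catenin, 11 of 14 feedback targets fell in KO and 0 rose, and 13 rose and 0 fell with Dox. Of these, DKK4 and RNF43 averaged above the 10 counts required for testing only in OE with Dox (876 and 643). Such genes pass the filter through that group, so their rise is no independent result, and they had little room to fall in KO. In OE without Dox against WT 7 of the 14 also fell and 0 rose, where 2.32% of all tested genes fell and 3.43% rose. In KO against OE without Dox 5 fell and 0 rose, where 1.75% of all tested genes fell and 0.351% rose. Part of the distance from WT was thus shared by the uninduced line. SP5, a transcription factor induced by WNT signals, averaged 128 ± 9.66 in WT and 6.40 ± 2.38 in KO (log2 fold -4.19, adjusted p = 5.6e-09), and TNFRSF19 averaged 391 ± 130 and 21.2 ± 6.07 (log2 fold -4.13, adjusted p = 2.2e-09). With Dox NKD1, a feedback inhibitor of WNT signalling, reached a log2 fold of 6.42 (adjusted p = 1.3e-13). NOTUM, an enzyme that inactivates WNT ligands, reached 2083 ± 533 from 2.75 ± 0.0284, the latter about the level of 3 reads. The list was chosen with earlier results of these data known.

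The destruction complex, which marks beta-catenin for degradation, had 2 of 10 genes higher and 1 lower in KO, and 1 higher and 4 lower with Dox. Over all tested genes 6.64% rose and 7.15% fell in KO, and 12.8% rose and 12.9% fell with Dox. The median log2 fold of the complex was 0.17 in KO and 0.05 with Dox, against -0.02 and 0.02 over all genes. AXIN2, its scaffold and itself a WNT target, averaged 275 ± 13.2 in WT, 93.4 ± 13.3 in KO, 173 ± 25.4 in uninduced OE and 3217 ± 165 with Dox. APC, the scaffold that holds beta-catenin in the complex, rose in KO from 648 ± 95.3 to 1523 ± 153 (log2 fold 1.24, adjusted p = 7.7e-06), and its relative APC2 fell with Dox from 1209 ± 298 to 382 ± 3.59 (log2 fold -1.63, adjusted p = 4.6e-06). APC also rose in OE without Dox against WT (1121 ± 236, log2 fold 0.78, adjusted p = 0.0061). In KO against OE without Dox it did not pass (log2 fold 0.46, adjusted p = 0.15). Of 10 TCF/LEF factors and cofactors, 1 rose and 3 fell in KO and 2 rose and 4 fell with Dox (median log2 fold -0.11 in KO and -0.14 with Dox). LEF1 averaged 427 ± 81.5 in WT against 91.3 ± 22.8 in KO, and rose from 222 ± 31.1 to 1845 ± 207 with Dox. TCF7L2 fell in KO (747 ± 77.2 to 470 ± 115, log2 fold -0.70, adjusted p = 0.0062), and TCF7 rose with Dox (54.5 ± 14.6 to 222 ± 83.9, log2 fold 1.97, adjusted p = 9.8e-05). TCF7L2 also fell in OE without Dox against WT (432 ± 17.9, log2 fold -0.78, adjusted p = 0.015). In KO against OE without Dox it did not pass (log2 fold 0.09, adjusted p = 0.97).

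Over the 14 libraries, the catenin whose log2 counts ran closest to CTNNB1 was CTNNA1, with Pearson r = 0.83, followed by CTNNBIP1 at 0.78 and CTNNBL1 at 0.75, while CTNNA2 ran against it at -0.73. JUP reached 0.32. The libraries fall into 4 groups and the Dox libraries set most of the CTNNB1 range, so these values describe group differences more than a graded relation, and no p is given.

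Genes outside the family whose pattern was nearest were ranked among 9346 genes with a mean count of at least 100. For CTNNB1 they were SLC20A2 (r = 0.99), COLGALT2 (0.99) and VGLL4 (0.99), and for JUP CEP170B (0.90), RGP1 (0.89) and RNF10 (0.88). CTNNA1 ran with ANO6 (0.98), with its own pseudogene CTNNA1P1 (0.96) and with RHOA (0.96), and CTNNA2 with EPHB2 (0.97), FGFR3 (0.93) and ASIC1 (0.93). The patterns of CTNNB1, CTNNA1 and CTNNA2, which moved in the comparisons above, had closer matches than those of JUP and CTNND1, which did not pass a test. The closest matches of CTNND2, CTNNBIP1 and CTNNBL1 lay between, at 0.92 to 0.94. A gene that differs between groups more readily finds a close match over these libraries, so this order restates the calls. For CTNND1 the nearest were FOXO1 (0.90), ABHD2 (0.88) and N4BP1 (0.88), and for CTNND2 ID1 (0.92), LINC00665 (0.92) and ADGRL3 (0.91). CTNNBIP1 ran with CAPN1 (0.94), CYB5R3 (0.94) and QSOX1 (0.93), and CTNNBL1 with NAT10 (0.93), DPCD (0.92) and DDB1 (0.91). ANO6 shows the CTNNA1 pattern at a lower level: 455 ± 39.1 in WT, 309 ± 36.5 in KO, 333 ± 40.0 in uninduced OE and 519 ± 24.7 with Dox.

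Of the other marker lists, 3 of 4 tested neural crest genes fell in KO and 0 rose. TFAP2A (21.4 ± 5.71 to 4.24 ± 0.828) and NGFR (347 ± 88.6 to 105 ± 43.4) had the smallest adjusted p, and NGFR also fell in OE without Dox against WT (116 ± 60.9). With Dox 1 fell and 0 rose, with SOX10 at 0 reads in every group and sums of 891 to 1064 in WT, 866 to 1637 in KO, 765 to 1234 in OE without Dox and 139 to 328 with Dox. Of 5 pluripotency genes 2 were tested, of which LIN28A fell in KO (444 ± 99.0 to 150 ± 64.0) and DPPA4 fell with Dox (138 ± 24.0 to 73.8 ± 28.3). NANOG was at 0 reads in WT, KO and OE with Dox, TDGF1 was at 0 in WT, and the sums were 672 to 888 in WT, 384 to 661 in KO, 253 to 450 in OE without Dox and 214 to 315 with Dox. The part of these lists in the catenin values was not tested.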

How the data were processed

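The authors deposited a normalized signal: reads per gene over a size factor for each library. Tools listed in the submitters' processing notes are HTSeq 0.9.1, TopHat2 2.1.1, DESeq2 and R 3.4.0, with the build hg38; annotation release and strand setting are not given in the sources used here. Whole reads were recovered for 100% of values (tolerance 0.01); 0 columns went unused.

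GENCODE 44 named 56948 of the identifiers. Tested genes reached a value of 10 in 3 or more libraries, in 1 fit of the 4 groups with limma 3.58.1 (R 4.3.3) on log2(count + 1), with intensity trend and robust empirical Bayes, checked on simulated data. Ratios used exact permutation tests over libraries (scipy 1.17.1). These tests treated libraries as independent, also in OE with and without Dox, where same-numbered libraries were counted as paired. No paired version was run. Alternatives included edgeR 4.0.16 and DESeq2 1.42.0 on the recovered reads.

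Members and lists were chosen with earlier results of these data known. All members were named; each list named up to 2 called genes of smallest adjusted p per main comparison, or else its most abundant gene; others are said to be named after their values were seen. Some genes that this rule selects are not reported here. Likeness was ranked by Pearson r, 3 genes a member.

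Same-numbered libraries deviated together in OE with and without Dox (r 0.22 to 0.40) and in WT and OE without Dox (0.17 to 0.28), which was counted as pairing. Values of r were also above 0 in WT and OE with Dox (0.04 to 0.25) and in KO and OE without Dox (0.05 to 0.22). They had both signs in WT and KO (-0.29 to 0.24) and in KO and OE with Dox (-0.05 to 0.16). These other pairs of groups were not counted as paired. The main values come from the fit without the replicate block; the block was an alternative.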

Additional observations from a re-analysis of the deposited data

How the results depend on the processing

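The catenin calls were recomputed under 25 alternatives (24 for the difference of effects). CTNNB1, CTNNA1 and CTNND2 in KO against WT, and CTNNB1, CTNNA1 and CTNNA2 with Dox, passed in all of them. The 5 calls with Dox became 3 without the filter on low counts, and 3 to 5 when 1 library was left out. DESeq2 called 1 gene in OE without Dox against WT, and leaving out 1 library gave 0 to 1 (1 without the third KO library, by the shared spread). In KO against OE without Dox, a filter of 50 counts, the fit without the robust option, the replicate block and edgeR each left 0, and leaving out 1 library gave 0 to 1.

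With the replicate number as a block (replicate block), JUP reversed to -0.083 in KO against WT and to -0.031 in KO against OE without Dox, and CTNNBIP1 reversed to -0.039 in KO against OE without Dox. CTNNA2 in KO against WT then passed (log2 fold -0.43, adjusted p = 0.040). The block changed no member's call in OE with Dox against without or in OE without Dox against WT, where numbers pair libraries. Replicate numbers 4 and 5 exist in KO only, so the block fitted KO 4 and KO 5 with terms of their own. The KO values under the block therefore rest on KO 1, KO 2 and KO 3. For JUP, the KO libraries set aside in this way were the highest of the group, at 358 and 379.

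Reversals when 1 library was left out were all of values that had not passed. For JUP the range was -0.094 to 0.27 in KO against WT, -0.20 to 0.16 in OE without Dox against WT and -0.022 to 0.24 in KO against OE without Dox. For CTNND1 it was -0.082 to 0.0038 with Dox against without and -0.038 to 0.083 against WT. For CTNND2 it was -0.029 to 0.29 with Dox against without and -0.20 to 0.12 against WT, and for CTNNBIP1 -0.0077 to 0.094 in KO against OE without Dox. The cause was not tested. With 3 to 5 libraries a group, JUP is the gene whose interval was widest.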
